A study of Mus musculus with 6 samples.

Results

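Fc receptors bind the constant part of antibodies and so let a macrophage take up, or react to, what antibodies have coated. In the mouse, Fcgr1, Fcgr3 and Fcgr4 encode activating receptors for IgG. They signal through a shared chain, encoded by Fcer1g, whose tyrosine motif is read by the kinase Syk. Fcgr2b encodes the inhibitory receptor, which carries an inhibitory tyrosine motif in its own tail and recruits the lipid phosphatase encoded by Inpp5d. Fcgrt encodes the neonatal Fc receptor, which pairs with the product of B2m and returns IgG from endosomes to the cell surface. Fcrl1 encodes an Fc receptor-like protein best known from B cells, and Fcamr a receptor for IgA and IgM. These 8 genes were chosen by their symbols, and all 8 were found among the 55487 genes of the deposited table, once each.

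The samples were mouse macrophages, the large phagocytes of tissues, grown in culture from sorted bone marrow cells. Of the 6 libraries, 3 came from macrophages grown from the cells called TpMos and 3 from macrophages grown from mature Ly6Chi monocytes. Both kinds of cell were cultured for 7 days in medium with the macrophage growth factor CSF-1 and then scraped off for RNA. The CSF-1 concentration of each sample, and the strain, age and number of the mice, are not given in the sources used here. Replicates were numbered in the order of the samples. Nothing in the labels says that they came from separate animals or cultures, so p-values cover the spread between these libraries, which may be technical.

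Total counts on genes were 23765773 to 33042094 per library. All 8 macrophage markers on the list used here passed the count filter. Their summed level was 35055 to 37509 CPM (counts scaled to a common library total) for TpMo-derived cells and 28947 to 32010 CPM for Ly6Chi-derived cells, so the groups did not overlap. Lyz2 made up most of this sum, with means of 25681 CPM (TpMo-derived) and 23319 CPM (Ly6Chi-derived), and its own values overlapped between the groups. Of the 8 markers, 3 rose, namely Adgre1, Cd14 and Csf1r, and 2 fell, among them Itgam, and their part in the results below was not tested. Markers of other cells that carry Fc receptors were low. Of 9 B cell markers, 6 had no count, among them Cd79a and Pax5, and the 9 summed to 5.27 to 19.2 CPM where TpMos were the source and to 4.97 to 11.2 CPM where Ly6Chi monocytes were. Of 10 neutrophil markers, Ly6g, Mpo and Retnlg had no count, and the sum was 2.00 to 3.12 CPM and 1.38 to 3.92 CPM, respectively. Mast cell and basophil markers summed to 0 to 1.93 CPM and 1.76 to 4.21 CPM with 9 of 10 at 0, where the remaining marker was Gata2. NK and T cell markers had 9 of 10 at 0 and summed to 0 CPM and 0 to 1.35 CPM, and dendritic cell markers had 5 of 8 at 0 and summed to 0.184 to 0.781 CPM and 0.403 to 1.27 CPM. In bulk libraries, fewer cells with a transcript and less of it per cell cannot be told apart.

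Fcgr1, the gene of the high-affinity IgG receptor CD64, was the member that differed most. Fcgr3, the activating receptor gene with the highest transcript level here, differed the other way. Fcgr1 was 3.88-fold higher in TpMo-derived macrophages, and Fcgr3 was 1.63-fold higher in Ly6Chi-derived macrophages. Fcgrt was higher in TpMo-derived macrophages by a smaller margin. The inhibitory receptor gene Fcgr2b, the activating receptor gene Fcgr4, the shared chain Fcer1g and Fcrl1 did not pass the test, and Fcamr had no count. In all, 7 members passed the filter on low counts, 2 rose, 1 fell and 4 did not pass (quasi-likelihood test of edgeR, p adjusted by Benjamini-Hochberg over all genes tested, threshold 0.05). Of the 13140 genes tested, 12.3% were called, 6.54% as higher and 5.79% as lower in TpMo-derived macrophages. The groups did not overlap for 4 of the 7 members, against 30.5% of all genes tested. The median log2 fold change was 0.24 over the 7 members and 0.01 over all genes tested.

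**Figure D1:**
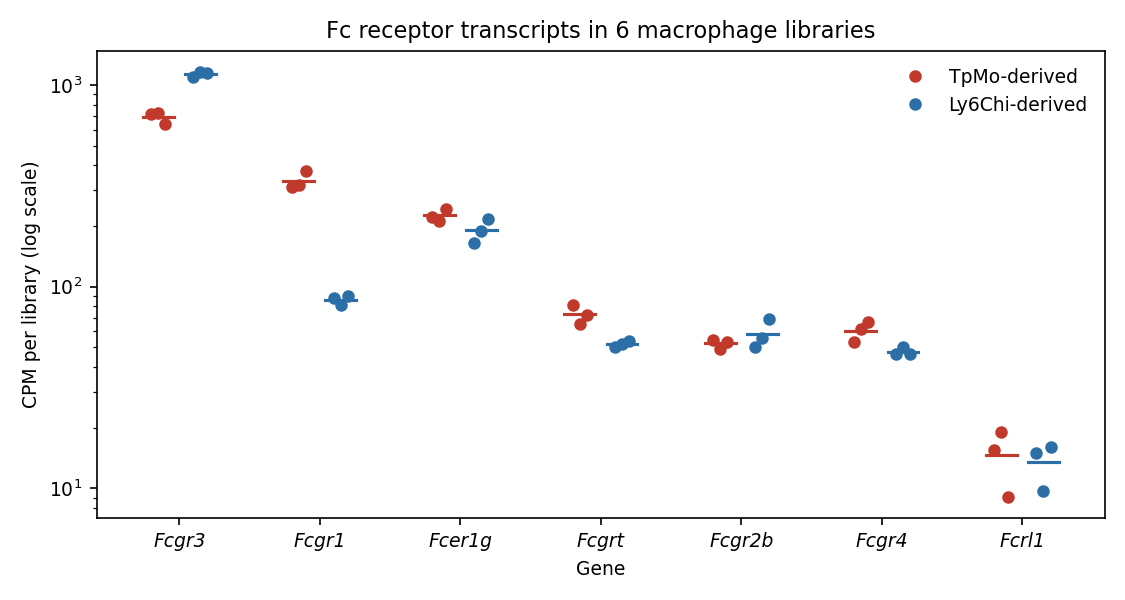
Level of each Fc receptor transcript in CPM (log axis) in each library, with TpMo-derived libraries in red, Ly6Chi-derived libraries in blue and group means as bars. The groups are apart for Fcgr3, Fcgr1, Fcgrt and Fcgr4 and overlap for Fcer1g, Fcgr2b and Fcrl1.

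Fcgr1 (ENSMUSG00000015947.10) spans chromosome 3 from 96282909 to 96293969 on GRCm38, on the minus strand. It stood at 311, 318 and 375 CPM in the TpMo-derived libraries and at 87.7, 81.0 and 89.8 CPM in the Ly6Chi-derived libraries. Every TpMo-derived library was thus above every Ly6Chi-derived library, with means of 335 ± 35.3 CPM and 86.2 ± 4.61 CPM (SD, n = 3 each). The log2 fold change was 1.96 ± 0.09 (SE, edgeR adjusted p = 3.53e-06), and only 4 genes in the table had a smaller p. The counts behind it were 27328 in the TpMo-derived and 7518 in the Ly6Chi-derived group. With any 1 library left out, its log2 fold change lay between 1.87 and 2.01 and the call stayed.

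Fcgr3 (ENSMUSG00000059498.13), which encodes the activating receptor CD16, spans chromosome 1 from 171051174 to 171064935 on the minus strand. Its level was 720, 729 and 639 CPM in TpMo-derived and 1089, 1160 and 1149 CPM in Ly6Chi-derived libraries. All TpMo-derived values were below all Ly6Chi-derived values, with means of 696 ± 49.8 CPM and 1133 ± 38.1 CPM (SD, n = 3 each). This was a log2 fold change of -0.70 ± 0.06 (SE, edgeR adjusted p = 9.69e-05), and -0.74 to -0.64 with 1 library left out, with the call kept each time. The genes Fcgr3 and Fcgr2b share sequence. Of the 1733 windows of 51 bases (the read length) in the annotated Fcgr3 transcripts, 9.41% also occur in Fcgr2b transcripts and in those of no other gene. Of the Fcgr2b windows, 6.91% occur in other genes, 2.87% of all its windows in Fcgr3. Reads from such windows may map to several places and go uncounted unless the mate settles the place, so both levels are uncertain.

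Fcgr4 (ENSMUSG00000059089.4) encodes a further activating receptor and lies beside Fcgr3, from 171018920 to 171029761 on the plus strand. It stood at 53.1, 61.5 and 66.8 CPM in TpMo-derived and at 46.4, 50.3 and 46.4 CPM in Ly6Chi-derived libraries. The groups did not overlap, but the difference did not pass (log2 fold change 0.34 ± 0.13 SE, edgeR adjusted p = 0.122). Between Fcgr4 and Fcgr3, which face each other on opposite strands, lie 21413 bases.

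Fcer1g (ENSMUSG00000058715.11), the signalling chain, lies on the same chromosome from 171229572 to 171234365. Its values were 222, 211 and 244 CPM in TpMo-derived and 165, 190 and 217 CPM in Ly6Chi-derived libraries. The ranges overlapped, since Ly6Chi-derived replicate 3 was above TpMo-derived replicate 2, and the gene did not pass (log2 fold change 0.24 ± 0.10 SE, edgeR adjusted p = 0.185). Fcgr2b, the inhibitory receptor gene (ENSMUSG00000026656.15, chromosome 1, 170958617 to 170976547), had 54.5, 49.2 and 53.2 CPM against 50.1, 55.9 and 69.3 CPM. Its groups overlapped too, and its log2 fold change was -0.16 ± 0.14 (SE, edgeR adjusted p = 0.572). A small difference of Fcgr2b in either direction was not detectable with these libraries. From the start of Fcgr2b to the end of Fcer1g, the cluster of 4 genes covers 276 kb.

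Fcgrt (ENSMUSG00000003420.8, chromosome 7, 45092990 to 45103851) had 80.8, 65.5 and 72.6 CPM in TpMo-derived libraries. The Ly6Chi-derived libraries had 50.1, 51.9 and 53.7 CPM, all lower than the TpMo-derived ones. Its log2 fold change was 0.49 ± 0.12 (SE, edgeR adjusted p = 0.0217). The call was lost without TpMo-derived replicate 1 or 3 (adjusted p = 0.0826 and 0.0681) and without Ly6Chi-derived replicate 1, 2 or 3 (adjusted p = 0.0859, 0.0853 and 0.0602), while the log2 fold change stayed between 0.41 and 0.56. B2m, whose product is the light chain of the neonatal receptor and of MHC class I molecules, rose as well. Its means were 1405 ± 208 CPM and 793 ± 66.2 CPM (SD, n = 3 each, log2 fold change 0.83 ± 0.10 SE, edgeR adjusted p = 5.75e-04).

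Fcrl1 (ENSMUSG00000059994.10, chromosome 3, 87376387 to 87402934) was detected in every library. Of the 9 B cell markers, 6 had no count, but Cd22 and Cd79b passed the count filter. Cd22 had means of 9.53 CPM in TpMo-derived and 6.64 CPM in Ly6Chi-derived libraries, and Cd79b 3.42 CPM and 2.20 CPM. Fcrl1 stood at 15.5, 19.1 and 9.11 CPM in TpMo-derived and 14.9, 9.66 and 16.0 CPM in Ly6Chi-derived libraries, from 210 to 516 counts per library. Its values scattered more than those of the other members, with a coefficient of variation of 34.7% and 25.2% in the groups, and did not differ beyond that scatter (log2 fold change 0.11 ± 0.31 SE, edgeR adjusted p = 0.885). Cd5l, the gene of a secreted macrophage protein, ends 5314 bases before Fcrl1 on the same strand. Its means were 539 CPM and 65.6 CPM in the TpMo-derived and Ly6Chi-derived groups (log2 fold change 3.04, edgeR adjusted p = 3.00e-05). Fcrl1 itself was not called. None of the exon bases of Fcrl1 lie on exons of another gene, and none of its windows of 51 bases occur in transcripts of another gene. Fcamr (ENSMUSG00000026415.11, chromosome 1, 130800902 to 130814740) had 0 counts in all 6 libraries, where the limit that a count of 0 allows is 3 counts, or 0.0908 to 0.126 CPM of the library totals. Intervals and limits of this kind cover counting error only. This limit takes counts as independent, but mates were counted separately, so it may be too low.

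**Figure D2:**
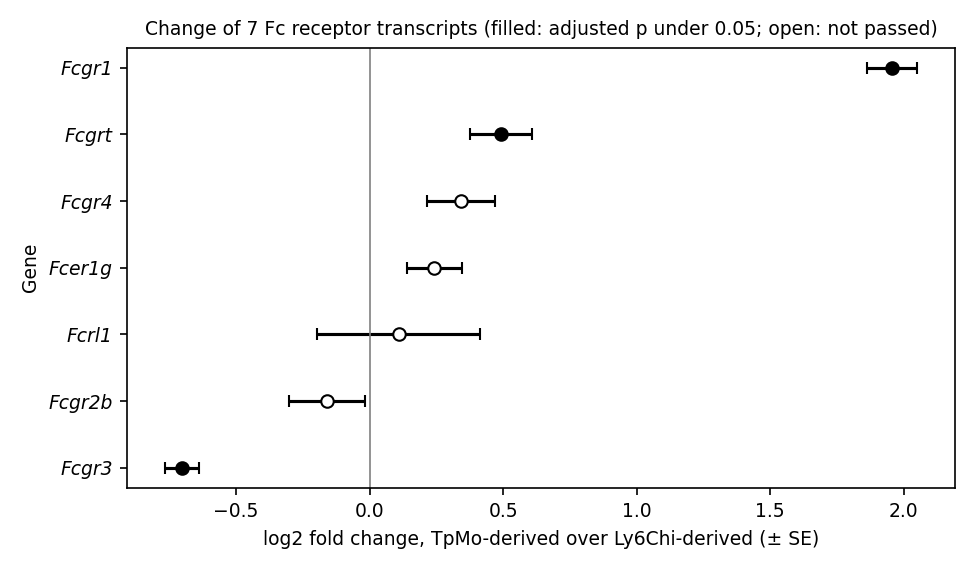
Log2 fold change of each tested Fc receptor transcript (TpMo-derived over Ly6Chi-derived, points) with its standard error (bars), filled where the adjusted p was under 0.05. Fcgr1 stands at 1.96, Fcgrt at 0.49 and Fcgr3 at -0.70, and the open points lie between -0.16 and 0.34.

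Promoters are shown for the activating receptor genes, since Fcgr1 and Fcgr3 differed in opposite directions and Fcgr4 lies beside Fcgr3. The windows run from 250 bases before to 50 bases after the RefSeq start site on GRCm38.p6, and a window was found for all 8 members. Capitals mark matches, on either strand, to GAAANNGAA (a pattern like the interferon-stimulated response element), TTCNNNGAA (the GAS pattern of STAT factors) or GAGGAA (the core bound by the macrophage factor PU.1). No matches overlapped in the 3 windows shown. The Fcgr1 window is chr3:96293920-96294219, the Fcgr3 window chr1:171059354-171059653 and the Fcgr4 window chr1:171018676-171018975. The Fcgr1 and Fcgr3 windows are on the minus strand and the Fcgr4 window is on the plus strand. The start used for Fcgr3 lies within the span that GENCODE gives the gene.
Fcgr1: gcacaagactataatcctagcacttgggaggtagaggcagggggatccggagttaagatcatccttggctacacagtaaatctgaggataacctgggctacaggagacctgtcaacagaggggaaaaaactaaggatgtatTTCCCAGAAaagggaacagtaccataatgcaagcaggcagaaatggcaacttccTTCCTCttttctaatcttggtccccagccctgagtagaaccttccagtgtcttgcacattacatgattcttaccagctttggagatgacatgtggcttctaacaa
Fcgr3: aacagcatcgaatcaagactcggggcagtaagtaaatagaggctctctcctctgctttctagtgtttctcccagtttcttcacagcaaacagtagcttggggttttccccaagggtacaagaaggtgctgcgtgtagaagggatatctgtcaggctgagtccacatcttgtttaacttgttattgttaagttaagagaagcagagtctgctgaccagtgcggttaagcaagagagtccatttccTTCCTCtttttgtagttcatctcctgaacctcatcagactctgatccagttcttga
Fcgr4: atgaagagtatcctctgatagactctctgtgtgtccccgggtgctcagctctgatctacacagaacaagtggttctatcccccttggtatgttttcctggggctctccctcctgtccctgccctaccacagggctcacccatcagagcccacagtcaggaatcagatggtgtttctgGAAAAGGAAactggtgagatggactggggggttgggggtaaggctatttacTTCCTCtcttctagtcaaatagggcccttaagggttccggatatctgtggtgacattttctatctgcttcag

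Among the members, only the Fcgr1 window held the GAS pattern, at -109 to -101 from the start site, where it reads TTCCCAGAA. Of all 32851 windows in the RefSeq table, 8.30% held it. The Fcgr4 window alone held GAAANNGAA, at -73 to -65, against 8.56% of all windows. GAGGAA occurred in the windows of Fcgr1, Fcgr3, Fcgr4, Fcrl1 and Fcamr and in 28.3% of all windows. The windows of Fcgr2b, Fcer1g and Fcgrt matched no pattern. A match is a match of letters and was not tested for binding.

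Levels of different genes were compared per length, as TPM (counts divided by the exon length in the table, then scaled to a common total). In TpMo-derived macrophages the order of mean TPM was Fcgr3 at 1328, Fcer1g at 854, Fcgr1 at 427, Fcgr4 at 159, Fcgrt at 115, Fcgr2b at 29.9 and Fcrl1 at 13.6. In Ly6Chi-derived macrophages it was Fcgr3 at 2258, Fcer1g at 754, Fcgr4 at 131, Fcgr1 at 115, Fcgrt at 85.4, Fcgr2b at 34.9 and Fcrl1 at 13.2. Neighbours in these orders did not overlap between libraries of a group. The Fcgr4 and Fcgr1 values of the Ly6Chi-derived libraries came closest, at 126 to 137 TPM and 107 to 121 TPM. In TPM, Fcgr1 thus stood above Fcgr4 in all TpMo-derived libraries and below it in all Ly6Chi-derived libraries. The order in Ly6Chi-derived libraries depended on the exon lengths, 2589 bases for Fcgr1 and 1256 bases for Fcgr4. In CPM, Fcgr1 was above Fcgr4 there too, at 81.0 to 89.8 against 46.4 to 50.3 CPM. The exon length of a gene counts all its annotated exons, used or not, so the TPM of Fcgr2b, with 5790 exon bases, may be understated.

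The make-up of the IgG receptor transcripts differed between the groups. The summed TPM of Fcgr1, Fcgr2b, Fcgr3 and Fcgr4 was 1944 ± 71.3 in TpMo-derived and 2540 ± 25.3 in Ly6Chi-derived macrophages (SD, n = 3 each). Fcgr1 made up 20.5, 20.4 and 25.2% of this sum in TpMo-derived libraries and 4.79, 4.18 and 4.65% in Ly6Chi-derived libraries. Fcgr3 made up 70.7, 70.0 and 64.0% against 88.8, 89.2 and 88.8%. Fcgr3 was thus the main part in every library, and the groups overlapped in neither share. Fcgr4 had 8.20 ± 1.02% against 5.18 ± 0.20%, and Fcgr2b 1.54 ± 0.11% against 1.37 ± 0.20%.

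**Figure D3:**
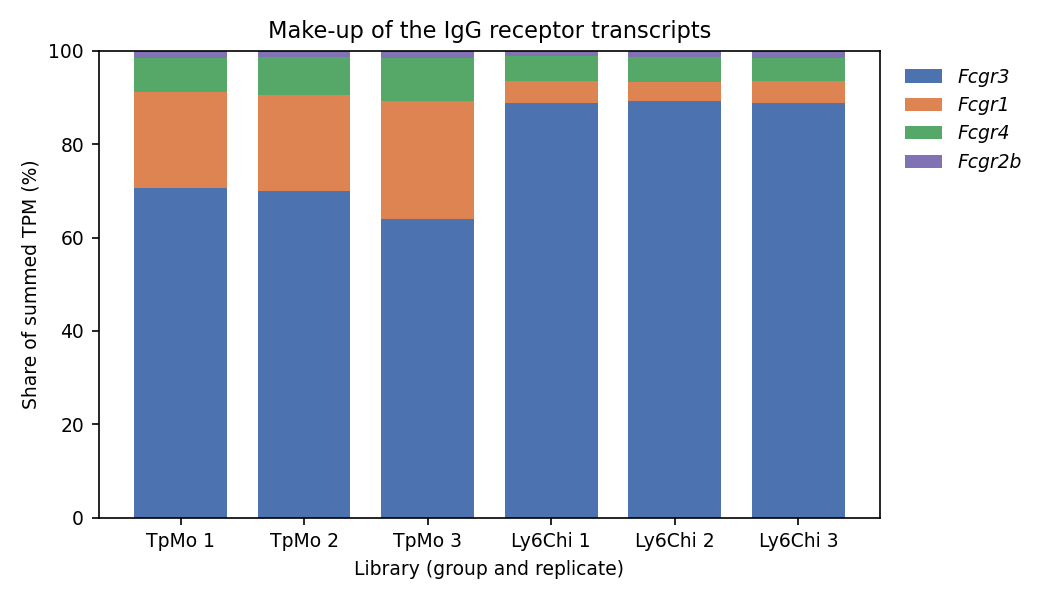
Share of each IgG receptor gene in their summed TPM (stacked bars, percent) in each of the 6 libraries. Fcgr1 takes 20.4 to 25.2% of the TpMo-derived bars and 4.18 to 4.79% of the Ly6Chi-derived bars, and Fcgr3 takes most of the rest.

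Activating and inhibitory receptors bind the same antibodies, so their balance was also followed as the summed TPM of Fcgr1, Fcgr3 and Fcgr4 over that of Fcgr2b. This ratio was 61.3, 69.6 and 61.5 in TpMo-derived and 80.7, 76.5 and 61.3 in Ly6Chi-derived libraries. The groups overlapped, with a mean log2 difference of -0.18. With Fcgr3 left out of the sum, because it shares sequence with Fcgr2b, the log2 difference turned to 1.46. The ratio therefore depended on which receptors entered it. The TPM of the shared chain Fcer1g over that of the activating receptors was 0.440, 0.409 and 0.492 in TpMo-derived and 0.271, 0.294 and 0.338 in Ly6Chi-derived libraries. Here the groups did not overlap (mean log2 difference 0.57), and without Fcgr3 the difference turned to -1.06. With 3 libraries against 3, the smallest p that an exact two-sided permutation test allows is 0.10, so that test could make no call on these ratios, and no other was run.

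Other genes whose products bind antibodies were mostly at or near 0. Of 12 listed, only B2m, listed as partner of Fcgrt, and Trim21, the cytosolic antibody receptor, passed the count filter, and Trim21 stood at 0.328 against 0.679 CPM. Fcer1a and Ms4a2, which form the IgE receptor of mast cells with Fcer1g, had no count, and neither had the polymeric receptor gene Pigr, which lies beside Fcamr. Other receptors that signal through Fcer1g had a median log2 fold change of -0.23. Over all genes tested, 5.79% were called as lower and 6.54% as higher. Of the 10 tested receptors on this list, 0 rose and 3 fell. Those that fell were Cd300ld, with 363 ± 16.0 CPM and 716 ± 13.4 CPM (log2 difference -0.98 ± 0.06 SE), and the C-type lectin genes Clec4n and Clec4e (-0.97 and -0.48), which recognise fungal and mycobacterial glycolipids or glycans. With no count filter 2 of the 3 were called, Clec4n having adjusted p = 0.0522. Only 1 of the 3 remained without TpMo-derived replicate 1, where Clec4n and Clec4e had adjusted p = 0.0605 and 0.0590. When TpMo-derived replicate 3 was left out, or Ly6Chi-derived replicate 3, Clec4e had adjusted p = 0.0681 and 0.0684. Clec4d, which pairs with Clec4e, had 465 CPM against 540 CPM and missed the threshold. Tyrobp, an adaptor with the same kind of motif as Fcer1g, had 176 ± 16.9 CPM and 166 ± 22.4 CPM (log2 difference 0.08, edgeR adjusted p = 0.732).

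Behind the receptors, of 28 kinases and adaptors, all tested, 1 was higher, 2 were lower and 25 missed the threshold (median log2 fold change -0.02, and 0.01 over all genes, of which 12.3% were called). Sos1, the exchange factor for Ras, and Prkcd, a protein kinase C, were lower (log2 fold changes -1.01 and -0.29). Sos1 was not called when TpMo-derived replicate 1 was left out, nor when Ly6Chi-derived replicate 2 or 3 was (adjusted p = 0.0503, 0.0655 and 0.0559). Prkcd was not called without TpMo-derived replicates 1 or 3 or Ly6Chi-derived replicates 1 or 3 (adjusted p from 0.0961 to 0.137). In this list 2 genes rose with DESeq2, and 2 without TpMo-derived replicate 1. Vav1 and Lat2, among the most abundant, did not pass, with 268 against 251 CPM and 254 against 288 CPM.

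Of 19 tested inhibitors of Fc receptor signalling, 5 were higher, 2 were lower and 12 missed the threshold (median log2 fold change 0.01). Over all genes tested, 12.3% were called, 6.54% as higher and 5.79% as lower. The tyrosine phosphatase gene Ptpn6, whose product SHP-1 binds inhibitory motifs, had 500 ± 27.8 CPM, and 302 ± 13.2 CPM in Ly6Chi-derived cells (log2 difference 0.73 ± 0.07 SE, edgeR adjusted p = 1.04e-04). The adaptor gene Dok2 stood at 393 ± 17.5 CPM against 233 ± 16.4 CPM (0.76 ± 0.07), and the lipid phosphatase gene Inppl1 at 157 ± 6.71 CPM against 113 ± 3.20 CPM (0.48 ± 0.08). Ptprc, which encodes the phosphatase CD45, was lower in TpMo-derived macrophages (449 ± 30.7 CPM) than in Ly6Chi-derived ones (577 ± 11.3 CPM). Dok3, an adaptor, was lower too (51.6 ± 2.14 CPM and 75.5 ± 0.90 CPM, log2 difference -0.55). The other genes that rose were Rasa1 and Dok1. Rasa1 had 61.0 ± 10.9 CPM in TpMo-derived and 28.7 ± 8.55 CPM in Ly6Chi-derived cells (log2 difference 1.09). Dok1 had 96.1 ± 2.16 CPM and 68.9 ± 7.32 CPM, respectively (0.48). Inpp5d, the phosphatase gene linked to Fcgr2b, had 359 ± 11.2 CPM and 362 ± 22.4 CPM and was not called (log2 difference -0.01, edgeR adjusted p = 0.952). Only 3 members rose without Ly6Chi-derived replicate 2, and 5 fell with DESeq2.

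Genes of the phagocytic cup, the actin structure that closes around an opsonised particle, rose in 7 and fell in 1 of 31 tested members, and the median log2 fold change was 0.12. The unconventional myosin Myo10, which carries the cup's membrane forward, had 82.2 ± 6.79 CPM, and 17.1 ± 1.24 CPM in Ly6Chi-derived cells (log2 difference 2.27 ± 0.13 SE). Marcksl1 stood at 164 ± 17.4 CPM against 51.2 ± 7.00 CPM (1.68 ± 0.13), and Myo1e, a membrane-bound myosin, at 664 ± 37.2 CPM against 372 ± 15.3 CPM (0.84 ± 0.07). Its relative Myo1f was lower in TpMo-derived macrophages (1078 ± 36.8 CPM) than in Ly6Chi-derived ones (1404 ± 30.0 CPM). The actin-nucleating subunit genes Arpc1b and Arpc2 rose slightly (0.21 and 0.30). Arpc2 missed the threshold when TpMo-derived replicate 3, Ly6Chi-derived replicate 1 or Ly6Chi-derived replicate 2 was left out (adjusted p = 0.0522, 0.0715 and 0.0629). Arpc1b missed it when any library was left out except TpMo-derived replicate 1 (adjusted p from 0.0518 to 0.123) and with library sizes alone (adjusted p = 0.0676). In this list 4 genes rose without Ly6Chi-derived replicate 1, and 4 without replicate 2 of that group, while 3 fell with library sizes alone or with DESeq2. Over these 6 lists together, 22 of 93 tested genes were called, or 23.7%, 14 higher and 8 lower, beside the 12.3% of all genes. These shares were not matched for level. Of the 13140 genes, 9236 had a mean of at least 5 CPM, and genes with few counts are harder to call.

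**Figure D4:**
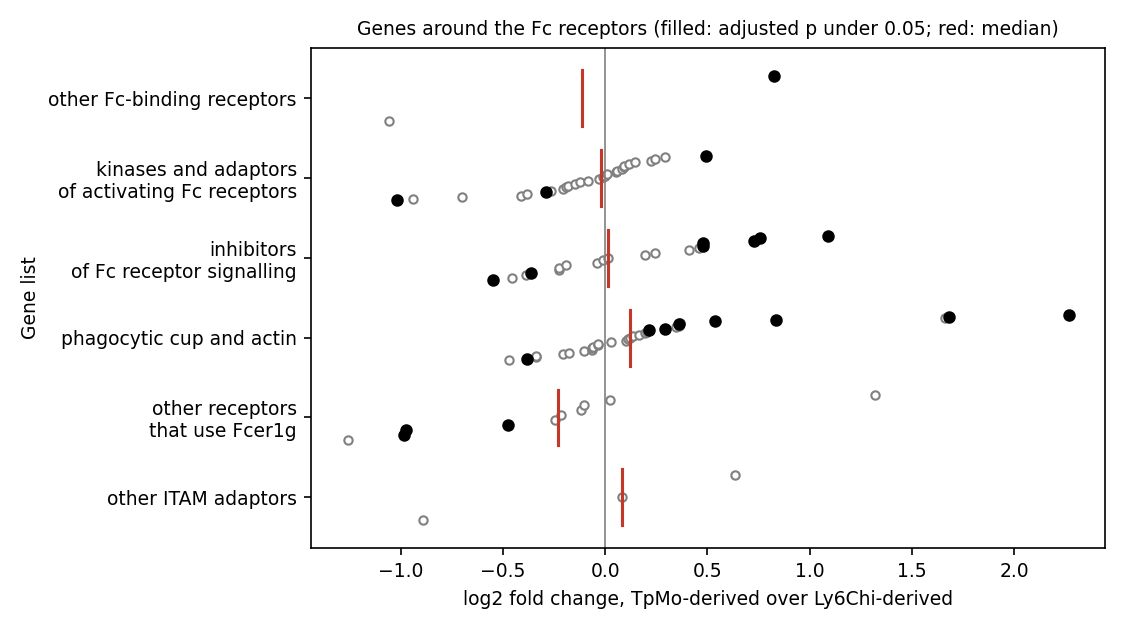
Log2 fold change of each tested gene (TpMo-derived over Ly6Chi-derived, points) in the 6 lists around the Fc receptors, filled where the adjusted p was under 0.05, with each list's median as a red line. Medians lie between -0.23 and 0.12, and the largest change is that of Myo10, at 2.27.

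Genes whose levels ran most like those of a member were taken by Pearson's correlation of log2 CPM over the 6 libraries, among the 9236 genes whose mean reached 5 CPM. These correlations include the group difference, and high values are found among so many genes. Nearest to Fcgr1 were Csf1r, the gene of the CSF-1 receptor, and the transcription factor gene Maf, with r = 0.999 each and smaller differences than Fcgr1 (log2 fold changes 0.51 and 0.55). Nearest to Fcgr3 were the lysosomal protease gene Tpp1 (r = 0.999, log2 fold change -0.30) and Mtfr1 (r = 0.997). Fcgrt ran most like the chemokine gene Ccl6 and Arpc2 (r = 0.997 each), and Fcgr4 like Morf4l2 (0.999) and Hyou1 (0.994). Among the 2 nearest to Fcer1g was Alg3 (r = 0.987), and among the 2 nearest to Fcrl1 was Fzr1 (r = 0.974). For Fcgr2b they were Pds5b (0.981) and Fbxl15 (0.974). Alg3, Fzr1, Pds5b and Fbxl15 were not called.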

How the data were processed

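Gene counts of 6 libraries were deposited by the authors as raw counts. Per the file headers, featureCounts 1.6.3 counted reads over exons of GENCODE M22 with no option for pairs, strand, multi-mapped or multi-overlapping reads, so by its defaults mates were counted separately, strand was ignored and ambiguous reads were left out. STAR and GRCm38 are named in the submitters' processing notes. Per the labels' protocols, SMART-seq v2 libraries were made from 2 ng of RNA and read for 51 cycles from each end. Symbols came from GENCODE on the same build (55394 identifiers matched, 93 did not). Exon length, per the file headers another column of the deposited table, served for TPM.

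All genes were fitted with edgeR 4.0.16 in R 4.3.3 (filterByExpr with a minimum count of 10 and total of 15, TMM, robust quasi-likelihood test, no covariate), with Benjamini-Hochberg adjustment over 13140 genes. CPM used TMM-scaled totals. Positive log2 fold changes mean higher in TpMo-derived macrophages, and SE was derived from the F statistic. The fit was tested on simulated data. Chi-square per degree of freedom between libraries of a group was 21.9 to 36.8, so none repeats another's counts. limma 3.58.1 (voom) and DESeq2 1.42.0 were alternatives.

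Members and lists were chosen with earlier results of these data known. Named genes were all members, up to 4 changed members per list by p and up to 3 by abundance, 2 genes per member by correlation, and genes beside members. From these, the text gives those that describe a list best. Cell type markers, some genes with no count, and Dok1, Dok3, Inpp5d and Rasa1 were named beyond this rule. The pathway lists came from general knowledge of Fc receptors. The list of receptors that use Fcer1g includes some, such as Cd300lb, that are better known with Tyrobp. Protein sequences were not used here, and some genes that the rule names are not reported here.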

Additional observations from a re-analysis of the deposited data

How the results depend on the processing

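Fcgr1 and Fcgr3 kept their direction and call under all 13 alternatives: other scalings, filters and tools, an adjusted p under 0.01, and each library left out. Fcgr2b, Fcgr4, Fcer1g and Fcrl1 passed under none of them. Members called as higher were 2, but 1 at an adjusted p under 0.01 and 1 to 2 with a library left out, the difference being Fcgrt. Members called as lower were 1 throughout. Pathway genes called were 22, but 14 at the stricter threshold, 17 to 21 with a library left out, 26 with at least 5 CPM in 3 samples and 30 with DESeq2. Among the tested members and the list genes named by the rule, 20 had a call. They kept it in 227 of 260 values under alternatives, lost it in 33 and reversed in 0. The 13 without a call gained one in 0. The log2 difference of the activating to inhibitory ratio turned from -0.18 to 1.46, and that of Fcer1g to activating receptors from 0.57 to -1.06, when Fcgr3 left the sum, which is how the alternative is built. Over all genes, 1620 calls became 785 at the stricter threshold, 2364 with DESeq2 (761 lower calls became 1165) and 976 to 1492 with a library left out. The tools and filters test unlike numbers of genes. No paired analysis was possible because the labels give no replicate numbers, animals or batches that join libraries across groups.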
